A study of Mus musculus with 120 samples.

Results

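The genes described here are 6 mouse genes of protease inhibitors or inhibitor-like proteins, Ctla2a, Ctla2b, Serpinb1a, Serpinb6a, Serpinb6b and Serpinb9, out of 46078 Ensembl gene identifiers in the count files. Ctla2b and Serpinb1a were picked because their levels differed widely between cell states in these same cells, and the other 4 were added as their relatives. The levels of Ctla2b and Serpinb1a across states are therefore a description of what chose them and support nothing further. The members were found by symbol, all 6 were present in the files, and all 6 lie on chromosome 13.

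The data are 3' RNA sequencing read counts of 120 single mouse group 2 innate lymphoid cells (ILC2), with 1 library per cell. ILC2 are lymphocytes without antigen receptors that release interleukin (IL) 13 and IL-5 when the tissue alarm signal IL-33 reaches them. Secretion of either IL-13 or IL-5, here called the index, was followed live in single cells, and cells were picked by the time since their own secretion began. The purpose of the design was to compare gene expression early after the onset of secretion with that before and late after stimulation.

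All cells came from a single pool of fat tissue (mesentery) of 20 wildtype C57BL/6 mice, sorted as lineage-negative, c-Kit+ Sca-1+ cells and expanded in culture with IL-2 for months before the experiment. The study's methods give retired female breeders as the usual source of such cells. Each index had 60 cells in 6 states. Pre-stimulation cells (5 per index) were taken before any stimulus, and the labels give none, or a dash, as their treatment. The other 5 states (11 cells each per index) had been incubated with IL-2 and IL-33. Transition cells were taken 30, 60 or 90 min after the onset of secretion, activated cells were secreting at the late end of stimulation, and silent cells were not secreting at that same late time. No single animal or culture is named for any cell, so each of the 12 groups counts as 1 sample of a single cell pool and no test between groups was possible. The 2 dates in the sample titles of the IL-5 index differ from the 2 of the IL-13 index, so index and date cannot be told apart in any difference between indexes given here. All pre-stimulation cells bear the first date of their index.

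A read count per gene was scaled to 1000000 gene reads and is called CPM. Depth had a median of 254001 gene reads per cell and ran from 65 to 785198, and 6 cells lay below 84667 reads. Of these, 3 IL-5 index cells (30 min replicate 10, 60 min replicate 8 and silent replicate 7) held fewer than 5000 reads and were left out of the per-cell ranges, a limit chosen after the data were seen, which leaves 117 cells. Group levels are CPM of reads summed over the cells of a group, with exact 95% Poisson intervals. Ratios between groups carry exact 95% binomial intervals of the split of reads. These intervals cover counting error only, since the libraries had no molecular identifiers, and the spread over cells is far wider. A group with 0 reads was set to 3 reads over the group, and its ratio is given as a bound, which takes the other group's level as measured and carries no interval of its own. All 14 markers checked for ILC2 had reads, and 0 of 8 markers of NK cells and ILC1 and 0 of 5 markers of B cells had any.

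The Ctla2 genes encode small proteins that resemble the propeptide of cathepsin L-like cysteine proteases, the part of the proenzyme that covers the active site and keeps it shut. Ctla2a inhibits such cysteine proteases, and the genes are best known from activated T cells and mast cells. Serpins work as suicide substrates: the target protease cuts an exposed loop of the serpin and is then trapped as a covalent complex. Clade B serpins, to which the 4 Serpinb genes belong, stay mostly inside the cell and guard it against proteases that leak from granules or lysosomes.

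The Ctla2 pair and the 4 serpins sit in separate stretches of chromosome 13. On GRCm38, Serpinb1a lies at chr13:32842092-32851185 on the minus strand, Serpinb6b at chr13:32965209-32979067 and Serpinb9 at chr13:33003250-33017957 on the plus strand, and Serpinb6a at chr13:33917918-34002794 on the minus strand. The 4 serpins span 1160.7 kb. Ctla2b at chr13:60895350-60897447 and Ctla2a at chr13:60934155-60936625 are both on the minus strand and together span 41.3 kb. The span of Serpinb6a overlaps 3 genes on the plus strand, Nqo2 (187 reads over all cells), 1110046J04Rik, an antisense gene (87 reads), and Ripk1 (10 reads). The strand setting of the counting is not given in the sources used here, so reads from these overlaps cannot be told apart.

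How alike the Ctla2 sequences are decides how well their reads can be told apart, so the aligned 300 bases of their coding sequences are shown. The coding sequence of Ctla2a has 411 bases and that of Ctla2b has 339, and 326 of 339 aligned bases were identical (96.2%). The stretch covers bases 73 to 372 of Ctla2a and bases 1 to 300 of Ctla2b, 5′ to 3′ on the minus strand of GRCm38 (GENCODE M21), within chr13:60935023-60936531 and chr13:60895714-60896714 with introns removed. Capitals mark the 13 bases that differ.

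Ctla2a: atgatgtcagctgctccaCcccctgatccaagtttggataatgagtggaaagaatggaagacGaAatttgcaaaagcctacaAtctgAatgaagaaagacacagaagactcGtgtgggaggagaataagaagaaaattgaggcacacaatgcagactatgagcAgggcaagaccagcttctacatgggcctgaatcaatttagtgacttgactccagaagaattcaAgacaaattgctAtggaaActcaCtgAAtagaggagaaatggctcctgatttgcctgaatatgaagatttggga

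Ctla2b: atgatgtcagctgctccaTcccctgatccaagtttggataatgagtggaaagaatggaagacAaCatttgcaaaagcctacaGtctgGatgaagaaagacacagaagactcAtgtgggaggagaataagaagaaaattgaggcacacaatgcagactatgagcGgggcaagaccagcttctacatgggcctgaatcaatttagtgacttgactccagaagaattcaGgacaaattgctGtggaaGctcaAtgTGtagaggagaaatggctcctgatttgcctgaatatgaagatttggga

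Because of this likeness, 10.7% of the 91-base windows of the Ctla2a transcript and 18.2% of those of the Ctla2b transcript occurred in the other gene with at most 2 mismatches, and 0.0779% and 0.133% with none. In the last 400 bases, where a 3' library places its reads, that share was 0% for all 6 members. Shares over the whole transcript were 7.44% for Serpinb1a (nearest Serpinb1b), 2.90% for Serpinb6b and 0.128% for Serpinb6a (nearest Serpinb6c in both) and 0% for Serpinb9. How far the authors' counting split reads between copies is not known, and the Ctla2a and Ctla2b counts are uncertain to that degree.

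The promoters of the Ctla2 pair, which were almost as alike, are shown because the levels of the pair parted between states. RefSeq promoters (250 bases before to 50 bases after the start, GRCm38.p6, minus strand, 5′ to 3′) matched 5 of the 6 members. The window of Ctla2a is chr13:60936576-60936875, the better aligned of its 2 windows, and that of Ctla2b is chr13:60897398-60897697. Over 278 aligned bases, 255 were identical (91.7%) and 23 differed. Capitals mark these and the 22 bases in each window without a counterpart in the other.

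Ctla2a promoter: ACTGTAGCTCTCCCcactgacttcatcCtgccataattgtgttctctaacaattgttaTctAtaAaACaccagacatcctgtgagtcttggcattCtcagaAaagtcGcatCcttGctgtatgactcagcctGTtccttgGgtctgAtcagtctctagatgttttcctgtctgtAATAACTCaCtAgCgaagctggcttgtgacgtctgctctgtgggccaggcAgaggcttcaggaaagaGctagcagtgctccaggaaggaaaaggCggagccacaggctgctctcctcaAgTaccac

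Ctla2b promoter: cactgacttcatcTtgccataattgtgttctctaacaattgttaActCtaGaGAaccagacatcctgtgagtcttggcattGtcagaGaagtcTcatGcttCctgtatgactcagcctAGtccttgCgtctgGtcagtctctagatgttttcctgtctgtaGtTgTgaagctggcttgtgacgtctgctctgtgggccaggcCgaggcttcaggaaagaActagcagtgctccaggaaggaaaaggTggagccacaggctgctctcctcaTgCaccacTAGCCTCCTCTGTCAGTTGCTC

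Each of these promoters held 1 match to the AP-1 motif (TGAGTCA or TGACTCA), which 5.20% of 32851 RefSeq promoters hold on either strand. The window of Ctla2a also held 1 match to a GATA motif (AGATAA or TGATAA, in 18.6% of promoters) and 1 to a STAT motif (TTCNNNGAA, in 8.30%), neither of which was matched in the window of Ctla2b. The other window of Ctla2a held the AP-1 and the STAT match but no GATA match. Of the 2 promoter windows of Serpinb6a, 1 held 2 matches to the STAT motif and the other none, and neither matched the AP-1 or GATA motif. The promoters of Serpinb6b and Serpinb9 held no match to any of these 3 motifs. A match is a description of letters and not of binding.

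Ctla2a, the cathepsin propeptide-like inhibitor, was abundant in nearly every cell, and the 4 highest of the 12 group levels were those of transition cells. A read was present in 118 of 120 cells, and group levels ran from 1923 CPM (activated, IL-13 index) to 9995 CPM in 60 min cells of the IL-5 index. Before stimulation, the 5 IL-13 index cells held 5310, 2198, 2920, 7241 and 4788 CPM. The 5 IL-5 index cells held 5886, 2198, 1794, 2834 and 2059 CPM. The pre-stimulation cells of both indexes overlapped, and a single IL-5 index cell stood above the other 4.

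At 30 min, Ctla2a ran from 166 through a median of 6907 to 22642 CPM over 11 cells of the IL-13 index. It ran from 3222 through 8429 to 13562 CPM over 10 cells of the IL-5 index. Activated cells were lower, with 0, 1762 and 4097 CPM as lowest, median and highest of the IL-13 index and 702, 2936 and 8607 CPM in the IL-5 index. Nearly all activated cells still held the transcript, 21 of 22. Silent cells spread widely, with a median of 3296 CPM between 6.60 and 14016 CPM in the IL-13 index and of 4514 CPM between 1434 and 19304 CPM in the IL-5 index. The cells of every state overlapped those of every other state.

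In the order of group levels, the 60 min cells of the IL-5 index (9995 CPM) led, followed by the 30 min cells of the IL-5 index (8246 CPM), the 30 min cells of the IL-13 index (8056 CPM) and the 90 min cells of the IL-13 index (7987 CPM). Among the last 3 of these, each overlapped the next within counting error. Next came the 90 min cells (6441 CPM) and silent cells (5980 CPM) of the IL-5 index and the silent (5452 CPM), 60 min (4977 CPM) and pre-stimulation cells (4578 CPM) of the IL-13 index. Activated (3431 CPM) and pre-stimulation cells (2645 CPM) of the IL-5 index followed, and activated cells of the IL-13 index (1923 CPM) came last. The spread over cells was wider than the steps between neighbours throughout. The order also differed between title dates: on the first date of the IL-13 index, silent cells were highest at 8986 CPM, beside 7801, 3614 and 4269 CPM at 30, 60 and 90 min, and on the second they were at 3591 CPM, beside 8205, 5662 and 9291 CPM.

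The log2 ratio of 30 min against pre-stimulation cells for Ctla2a was 0.82 (0.77 to 0.86) for the IL-13 index and 1.64 (1.59 to 1.69) for the IL-5 index. Against activated cells, the 30 min level was higher by 2.07 (2.03 to 2.11) and 1.27 (1.24 to 1.30) on the log2 scale. The first of these came to 1.72 without 30 min replicate 11, which held 29.4% of the Ctla2a reads of its group. Activated against pre-stimulation cells differed in sign between the indexes, at -1.25 (-1.31 to -1.20) and 0.38 (0.32 to 0.43). The median of all genes with a ratio was 0.37 and 0.38 in these comparisons, so Ctla2a lay below it in the IL-13 index and at it in the IL-5 index. Scaling with edgeR's TMM factors would add 0.24 and 0.47 to every such log2 ratio, and DESeq2's size factors -0.07 and 0.08, and neither scaling changed the sign of a ratio of Ctla2a in this paragraph. Against the pooled pre-stimulation cells of both indexes, however, the activated ratios were -0.86 and -0.03, so the difference in sign rested on which pre-stimulation cells were used.

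**Figure D1:**
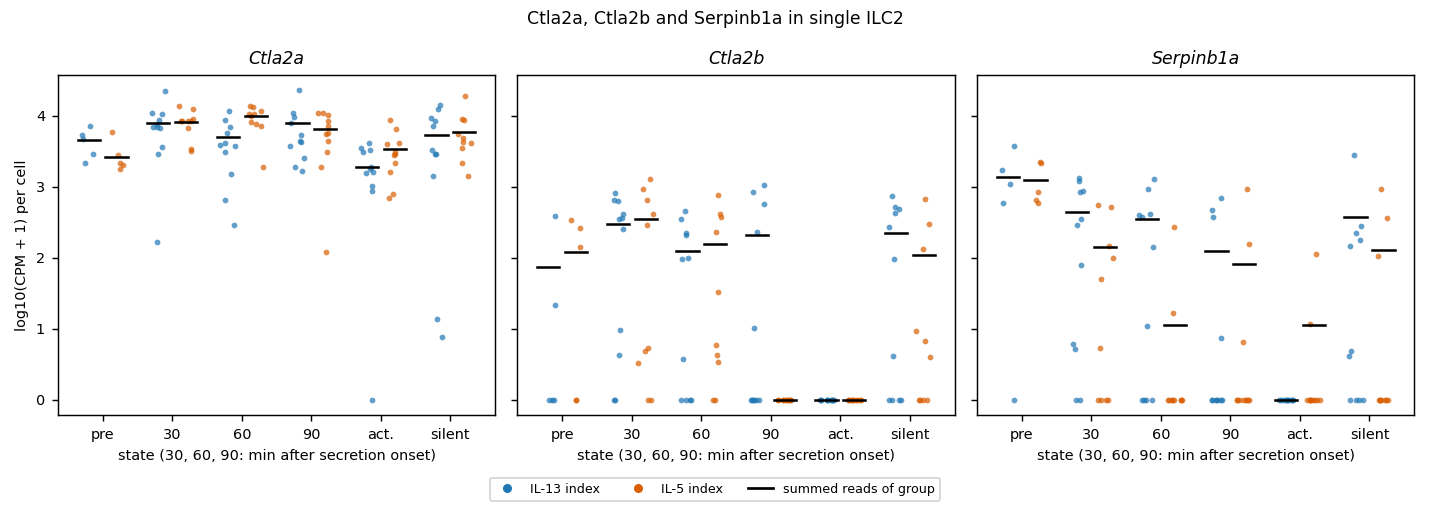
CPM of Ctla2a, Ctla2b and Serpinb1a in each of the 117 cells (points, log10 of CPM plus 1) by state, with the index as colour and the CPM of summed reads of the group as black lines. Ctla2a is present in nearly all cells, while all activated cells sit at 0 for Ctla2b and all but 2 for Serpinb1a.

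Ctla2b, the close relative of Ctla2a, was found in fewer cells, at far lower levels, and in 0 activated cells. A read was present in 55 of 120 cells. By state, both indexes together, this was 5 of 10 pre-stimulation cells, 17 of 22 cells at 30 min, 15 of 22 at 60 min, 5 of 22 at 90 min and 13 of 22 silent cells. In activated cells it was 0 of 22, which at 3 cells allows a share of up to 13.6% of cells with a read. After thinning every cell to 100000 gene reads, the counts were 5 of 10, 16 of 21, 13 of 21, 4 of 18 and 11 of 21, and 0 of 22 activated cells, with 7 shallower cells left out.

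Before stimulation, the 5 IL-13 index cells held 20.3, 0, 0, 391 and 0 CPM of Ctla2b, and the 5 IL-5 index cells held 262, 0, 140, 0 and 336 CPM. The level of the IL-13 index thus rested on replicate 4, which held 93.0% of the reads. At 30 min the median cell held 346 CPM in the IL-13 index (highest 820) and 146 CPM in the IL-5 index (highest 1293). At 60 min the medians were 96.1 CPM (highest 458) and 18.4 CPM (highest 774). The lowest cell of each of these groups was at 0, and pre-stimulation, 30 min, 60 min and silent cells overlapped.

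At 90 min the cells of the IL-13 and of the IL-5 index differed in Ctla2b. The 11 IL-13 index cells ran from 0, which was also the median, to 1051 CPM, with reads in 5 cells, while all 11 IL-5 index cells had 0 reads. The summed level was at least 127-fold lower in the IL-5 index at this time, and the bound lay between 98.6-fold and 149-fold on leaving out any cell. By date, IL-13 index cells held 439 and 128 CPM, and IL-5 index cells held 0 on both of theirs. All 22 activated cells also had 0 reads. Silent cells, taken at the same late time, ran from 0 through a median of 95.5 to 751 CPM in the IL-13 index and from 0 through 4.34 to 674 CPM in the IL-5 index.

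Summed over cells, in the order pre-stimulation, 30, 60 and 90 min, activated and silent, Ctla2b of the IL-13 index stood at 73.6 (57.5 to 92.9), 294 (274 to 316), 124 (112 to 138), 209 (188 to 232), 0 (0 to 1.16) and 219 (201 to 237) CPM. The corresponding levels of the IL-5 index were 119 (100.2 to 140), 349 (329 to 369), 156 (143 to 170), 0 (0 to 2.02), 0 (0 to 0.99) and 107 (95.4 to 119) CPM. The highest levels were thus at 30 min in both indexes, which held on the second title date of each. On the first date, Ctla2b was at 439 CPM at 90 min and 330 CPM at 30 min in the IL-13 index, and at 253 CPM at 60 min and 194 CPM at 30 min in the IL-5 index. In the full order, silent and 90 min cells of the IL-13 index overlapped within counting error, as did 60 min cells of the IL-13 index with pre-stimulation cells of the IL-5 index, and the latter with silent cells of the IL-5 index.

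Ctla2b was at least 78.4-fold lower in activated than in pre-stimulation cells of the IL-13 index, and for the IL-5 index the bound was 148-fold. Without pre-stimulation replicate 4 the bound of the IL-13 index was -2.74 on the log2 scale in place of -6.29, and without pre-stimulation replicate 5 that of the IL-5 index was -6.49 in place of -7.21. Against silent cells, the bounds were 233-fold lower and 133-fold lower for the IL-13 and IL-5 index, and in the latter silent replicate 11 held 61.5% of the reads and the bound without it was -5.82 in place of -7.05 on the log2 scale. Both title dates had 0 reads in activated cells of both indexes, beside 299 and 176 CPM in IL-13 silent cells and 76.7 and 140 CPM in IL-5 silent cells.

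The log2 ratio of 30 min against pre-stimulation cells for Ctla2b was 2.00 (1.65 to 2.37) and 1.55 (1.30 to 1.81). The first lies just inside the 4-fold limit, at 3.998-fold, and came to 5.55 without pre-stimulation replicate 4. The second came to 2.27 without pre-stimulation replicate 5 and to 0.97 without 30 min replicate 7. Silent against pre-stimulation cells gave 1.57 (1.21 to 1.95) for the IL-13 index and -0.16 (-0.44 to 0.14) for the IL-5 index, and the latter turned to 0.56 without pre-stimulation replicate 5 and was -1.38 without silent replicate 11. The former was 5.12 without pre-stimulation replicate 4.

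The Ctla2 genes could be set against each other within the same libraries. Of the 117 cells, 55 held reads of both, 61 of Ctla2a alone, 0 of Ctla2b alone and 1 of neither. Ctla2b made up 2.59% (2.52 to 2.67) of the Ctla2 reads over all cells outside the activated state, 4408 reads beside 165712 of Ctla2a. In activated cells there were 0 reads beside 18945 of Ctla2a, which at 3 reads allows up to 0.0158%. In the groups with Ctla2b reads the share ran from 1.53% in 60 min cells to 4.30% in pre-stimulation cells, both of the IL-5 index.

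The activated and the IL-5 index 90 min cells thus stood apart from all other groups in the share of Ctla2b as well as in its level. A single cell, silent replicate 6 of the IL-13 index, held more Ctla2b than Ctla2a, with 145 reads against 2. In 14 cells Ctla2b had only 1 to 4 reads, and all 14 shared a sequencing pool with a cell of at least 50 Ctla2b reads, where a pool was taken as the cells of 1 state and title date. Of the 62 cells with 0 reads that were not near-empty, 29 shared a pool with such a cell. The part of reads passing between libraries of a pool was not tested. Another 41 cells held 5 reads or more, with a median of 92.

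**Figure D2:**
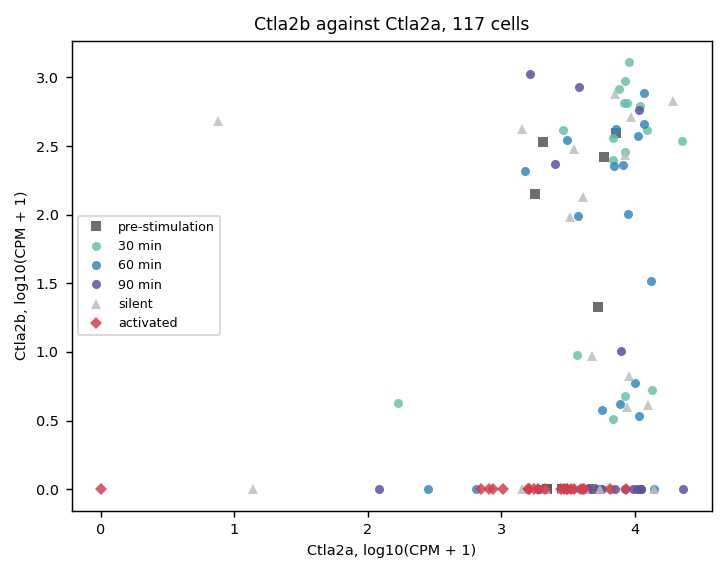
Ctla2b against Ctla2a in the 117 cells, each as log10 of CPM plus 1, with a colour and symbol per state. The 22 activated cells lie along the bottom at 0 Ctla2b, among cells of other states with like Ctla2a levels.

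Serpinb1a, the mouse counterpart of the inhibitor of neutrophil elastase and related granule proteases, was highest before stimulation and nearly absent from activated cells. A read was present in 53 of 120 cells, in 9 of 10 before stimulation, 15, 9 and 7 of 22 at 30, 60 and 90 min, 2 of 22 activated and 11 of 22 silent cells. Thinned to 100000 reads, the counts were 9 of 10, 14 of 21, 9 of 21, 5 of 18, 2 of 22 and 9 of 21. The 5 IL-13 index cells before stimulation held 593, 1102, 0, 3739 and 1699 CPM, and the 5 IL-5 index cells held 2189, 652, 857, 2210 and 598 CPM. Apart from a single cell at 0, every pre-stimulation cell held at least 593 CPM.

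At 30, 60 and 90 min after onset the median cell of the IL-13 index held 290, 140 and 0 CPM, with highest cells of 1315, 1268 and 689 CPM. Median cells of the IL-5 index held 26.7, 0 and 0 CPM at these times, with highest cells of 560, 272 and 920 CPM. All 11 activated cells of the IL-13 index had 0 reads. Of the 11 IL-5 activated cells, 9 had 0 and the highest, replicate 4, held 111 CPM. Each transition group had cells at 0 and cells within the range of the pre-stimulation cells, except the 30 min and 60 min cells of the IL-5 index, whose highest cells lay under the lowest of their own 5 pre-stimulation cells (598 CPM).

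Silent cells were again mixed. Their median was 3.82 CPM in the IL-13 index, with a highest cell of 2761 CPM (replicate 6, 83.5% of the reads of the group), and 0 in the IL-5 index, with a highest cell of 940 CPM (replicate 10, 55.3%). That silent replicate 6 of the IL-13 index was also the cell with more Ctla2b than Ctla2a reads.

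In the same order of states, the summed level of Serpinb1a of the IL-13 index was 1379 (1306 to 1455), 447 (422 to 473), 348 (328 to 370), 125 (108 to 143), 0 (0 to 1.16) and 379 (355 to 403) CPM. The levels of the IL-5 index were 1233 (1172 to 1297), 139 (127 to 152), 10.2 (7.14 to 14.2), 79.8 (67.4 to 93.9), 10.5 (7.43 to 14.3) and 129 (117 to 143) CPM. Both indexes thus began at a like level, 1.12-fold apart. At 60 min the IL-5 index was 34.0-fold lower than the IL-13 index, with 88.6% of its 35 reads in replicate 4, and on the 4 reads left without that cell it was 288-fold lower. At 90 min it was 1.56-fold lower, but this rested on single cells. Without IL-13 replicate 11, which held 67.3% of the reads of its group, the IL-5 index was 1.72-fold higher, and without IL-5 replicate 4 (77.4%) it was 6.46-fold lower. In the order of levels, silent and 60 min cells of the IL-13 index overlapped within counting error, as did 30 min and silent cells of the IL-5 index with 90 min cells of the IL-13 index, and activated with 60 min cells of the IL-5 index.

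The log2 ratio of activated against pre-stimulation cells for Serpinb1a was at most -10.52 in the IL-13 index, where activated cells had 0 reads, and -6.88 (-7.38 to -6.42) for the IL-5 index, a 118-fold difference. Without pre-stimulation replicate 4 the first bound was -9.87, and without activated replicate 4 the second was -9.72. For 30 min against pre-stimulation cells the ratio was -1.62 (-1.74 to -1.51) and -3.15, the latter an 8.89-fold difference. These came to -0.97 without pre-stimulation replicate 4 of the IL-13 index and to -3.75 without 30 min replicate 8 of the IL-5 index.

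Serpinb1a was at least 403-fold lower in activated than in IL-13 silent cells and 12.4-fold lower for the IL-5 index. The log2 bound of the former was -6.23 without silent replicate 6 in place of -8.65. The latter was -6.47 without activated replicate 4 and -2.58 without silent replicate 10, in place of -3.63 on the log2 scale. On the first title date of the IL-5 index, silent and activated cells were at 19.2 and 21.4 CPM, and on the second at 252 and 2.33 CPM. That difference was therefore seen on only 1 of the 2 dates. Silent against pre-stimulation cells gave -1.87 (-1.98 to -1.75) in the IL-13 index (-4.29 without silent replicate 6 and -1.21 without pre-stimulation replicate 4), beside -3.26 (-3.42 to -3.09) in the IL-5 index, and -4.30 without silent replicate 10.

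Other genes differed between the same states. Among 10 T cell markers, Cd3g, a chain of the T cell receptor complex, stood at 1128 and 1195 CPM before stimulation in the IL-13 and IL-5 index and at 0 in both activated groups. It was read in 26 cells. Trbc2, the most abundant of these markers and read in 98 cells, was at 581 and 573 CPM before stimulation and at 443 and 296 CPM in activated cells, and Lat also stayed within 4-fold. The 10 markers summed to between 438 and 2038 CPM over the groups, and 4 of them (Cd4, Cd8a, Cd8b1 and Cd28) had no read, while Cd3e had 9 reads in all. Among 8 cell cycle genes, Stmn1, Hmgb2 and Top2a were at 1570, 2787 and 278 CPM before stimulation in the IL-13 index and at 0, 606 and 0 CPM in the IL-5 index. Mki67 went the other way, at 95.4 CPM in the IL-13 and 167 CPM in the IL-5 index before stimulation, from 1 cell in each. Tubb5, read in 98 cells, was at 376 and 199 CPM before stimulation and at 362 and 247 CPM in activated cells. The 8 genes summed to 5530 CPM in pre-stimulation cells of the IL-13 index and to between 177 and 972 CPM in the other 11 groups. The part of either in the levels of Serpinb1a was not tested.

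**Figure D3:**
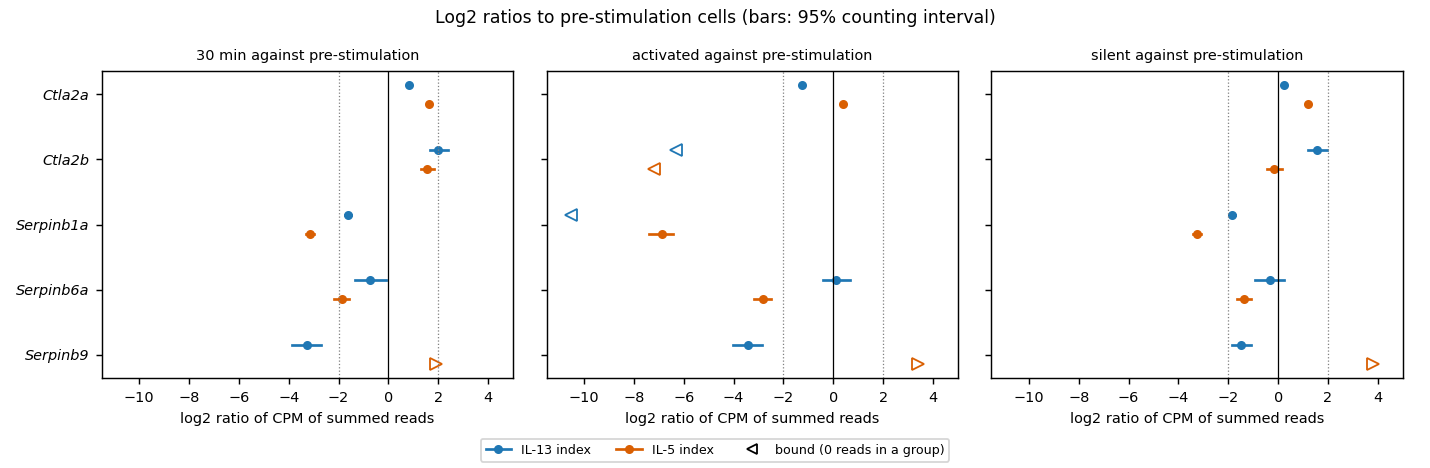
Log2 ratios of CPM of summed reads for the 5 members that passed the level filter, in 30 min, activated and silent cells against pre-stimulation cells of the same index. Points have 95% counting intervals, open triangles are bounds where a group had 0 reads, and dotted lines mark 4-fold. Ctla2b and Serpinb1a lie beyond 4-fold lower in activated cells of both indexes, and Serpinb9 lies on opposite sides of 0 in the 2 indexes.

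Serpinb9, which inhibits granzyme B and so shields cytotoxic cells from their own granules, was rare. A read was present in 19 of 120 cells and in at most 3 cells of any group. Before stimulation the 5 IL-13 index cells held 60.9, 0, 0, 0 and 458 CPM, and all 5 IL-5 index cells were at 0. The median cell was at 0 in all 12 groups. Highest cells after stimulation ran from 45.3 CPM at 30 min to 389 CPM in silent cells in the IL-5 index, where 60 min cells were all at 0. Those of the IL-13 index ran from 64.6 CPM at 60 min to 300.2 CPM in silent cells.

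Group levels of Serpinb9 in the IL-13 index were 118 CPM before stimulation, 12.3, 11.4 and 17.4 CPM at 30, 60 and 90 min, 11.0 CPM in activated and 42.3 CPM in silent cells. Those of the IL-5 index were 0, 9.29, 0, 23.0, 26.3 and 34.3 CPM. Apart from the highest group and the groups at 0, neighbours in the order of these levels overlapped within counting error. Activated against pre-stimulation cells gave a log2 ratio of -3.43 (-4.02 to -2.87) in the IL-13 index, which came to -0.87 without pre-stimulation replicate 5 and to -4.27 without activated replicate 1. Activated cells of the IL-5 index held at least 10.6-fold more, a log2 bound of 3.41 that came to 2.10 without activated replicate 1, and against the pooled pre-stimulation cells of the indexes the log2 ratio turned to -0.996. Its direction therefore rested on which pre-stimulation cells were used. The 30 min cells gave -3.26 (-3.87 to -2.69) for the IL-13 index, which came to -0.70 without pre-stimulation replicate 5 and to -4.73 without 30 min replicate 4. In the IL-5 index, 30 min cells were at least 3.75-fold higher than the pre-stimulation cells, which were all at 0. That log2 bound of 1.91 came to 0.76 without 30 min replicate 5. Against the pooled pre-stimulation cells the log2 ratio turned to -2.49.

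Serpinb6a, an intracellular serpin whose known targets include cathepsin G, was found in 40 of 120 cells at low levels in every group. Before stimulation the IL-13 index cells held 106, 0, 0, 0 and 55.6 CPM. The IL-5 index cells held 0, 3.26, 0, 764 and 0 CPM, so that replicate 4 held 99.6% of the reads of its group. In the other groups the lowest cell was at 0 and the median at most 14.0 CPM, with highest cells between 173 and 827 CPM. In the range of its cells, no group stood apart from the others.

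Group levels of Serpinb6a lay between 23.9 CPM in 30 min cells and 71.2 CPM in 60 min cells of the IL-13 index, and between 26.0 CPM in activated and 186 CPM in pre-stimulation cells of the IL-5 index. From the 60 min cells of the IL-13 index downwards, each group overlapped the next in order within counting error. Activated against pre-stimulation cells gave a log2 ratio of 0.12 (-0.40 to 0.68) in the IL-13 index. It ran from -0.50 to 1.36 on leaving out each cell and was -1.49 against the pooled pre-stimulation cells of the indexes. The same ratio was -2.84 (-3.19 to -2.49) in the IL-5 index and turned to 2.99 without pre-stimulation replicate 4, so it rested on that cell. Between activated and pre-stimulation cells, Serpinb6a and Serpinb9 were thus the members whose ratio a single cell could turn or bring within 4-fold.

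Serpinb6b, a neighbour of Serpinb9 and relative of Serpinb6a, was read in 3 of 120 cells. These were 30 min replicate 10 (6 reads) and silent replicate 3 (2 reads) of the IL-13 index and silent replicate 2 of the IL-5 index (102 reads, 284 CPM). The other 9 groups had 0 reads, which in pre-stimulation cells allows up to 3.11 and 2.47 CPM at 3 reads. Its mean over the groups was under 10 CPM, and it was the member left out of the counts past 4-fold.

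**Figure D4:**
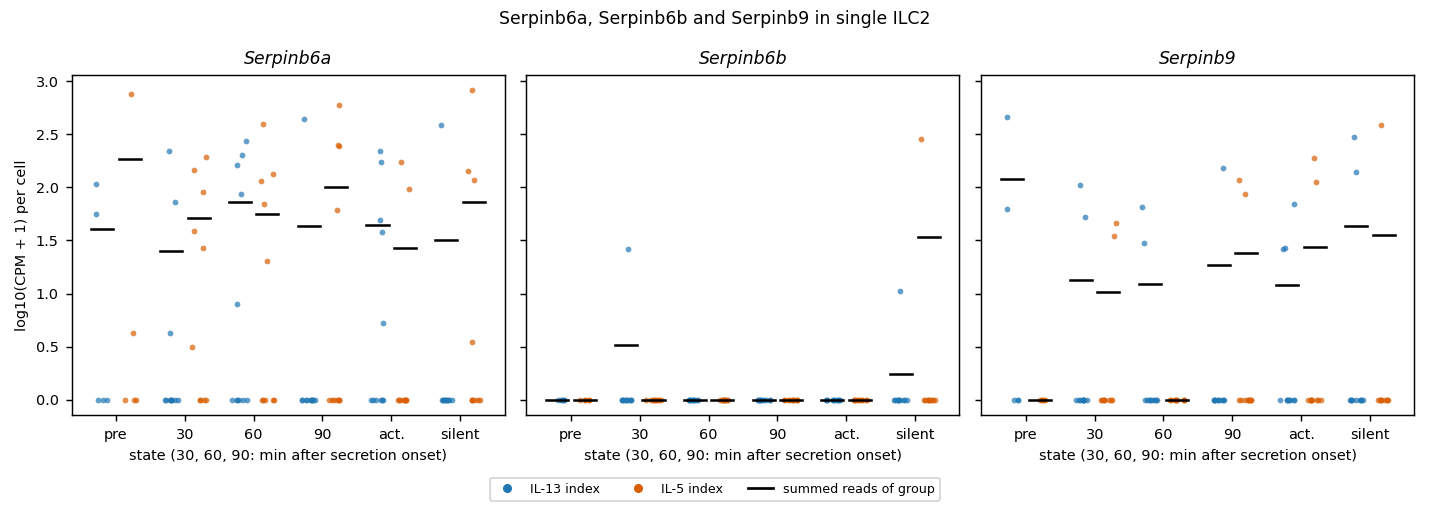
CPM of Serpinb6a, Serpinb6b and Serpinb9 in each of the 117 cells (points, log10 of CPM plus 1) by state, with the index as colour and the CPM of summed reads of the group as black lines. Most cells sit at 0, and a few cells set each group's level.

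Counts past 4-fold, the fold the study used, were read against all 6620 genes that averaged 10 CPM or more across groups. Of the 6 members, 5 passed this filter, which a gene can do through a single high group. In activated against pre-stimulation cells of the IL-13 index, 3 of the 5 were lower (Ctla2b, Serpinb1a and Serpinb9), where 18.1% of all tested genes were, and 0 were higher, where 25.6% were. For the IL-5 index, 3 were lower (Ctla2b, Serpinb1a and Serpinb6a; 18.5% of genes) and 1 was higher (Serpinb9; 29.1% of genes). Ctla2b and Serpinb1a chose the list, so nothing is read from these counts.

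In 30 min against pre-stimulation cells, 1 of the 5 was lower in the IL-13 index (Serpinb9, 18.3% of genes) and 1 in the IL-5 index (Serpinb1a, 16.4% of genes), and 0 were higher, where 23.8% and 28.9% of genes were. In silent against pre-stimulation cells, 0 members were lower or higher in the IL-13 index, where 14.5% and 27.3% of genes were. For the IL-5 index 1 was lower (Serpinb1a, 16.3% of genes) and 1 higher (Serpinb9, 29.0% of genes). That Serpinb9 value rested on silent replicate 3, which held all 105 reads, and without it both groups were at 0. In activated against silent cells, 2 members were lower in each index, Ctla2b and Serpinb1a, where 20.1% and 15.2% of genes were, and 0 were higher, where 14.9% and 12.3% were. These comparisons share their pre-stimulation or activated cells and are not independent of each other.

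The other protease inhibitors, the proteases they act on and the caspases were set beside the members. Of 58 other serpin genes (6 pseudogenes apart), 53 had no read in any cell, and 2 reached a mean of 10 CPM, Serpini1 and Serpina3g. Serpini1, the neuronal serpin, was at 0 in pre-stimulation cells and at 10.0 and 35.9 CPM in activated cells. Serpina3g had 138 CPM in IL-13 silent cells, 44.2 CPM in 30 min cells of the IL-5 index and at most 2.40 CPM elsewhere. Among 23 other Serpinb genes, 1 had a read, and the 11 of them on chromosome 13 had 0 reads. The members were thus nearly the whole of the clade B serpin signal in these cells.

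The cystatins, inhibitors of cysteine cathepsins, were the other class with high levels, in 3 of 15 genes. Cst7 (cystatin F), which acts on cathepsins inside the lysosome of immune cells, was lower in activated cells, at 37.6 CPM against 413 before stimulation in the IL-13 index and 8.31 against 1077 CPM in the IL-5 index. Its log2 ratios were -3.46 and -7.02. In silent cells Cst7 was also low, at 35.1 and 14.4 CPM. Cst3 (cystatin C) and Cstb (cystatin B) stayed within 4-fold, with a mean over the groups of 567 and 251 CPM. Of 12 other inhibitors, 2 passed the filter: Cast (calpastatin, the inhibitor of calpains) was at 63.3 and 90.7 CPM before stimulation and at 2.82 and 8.84 CPM in activated cells, and Spint2, a membrane-bound inhibitor of serine proteases, had a mean of 83.5 CPM and stayed within 4-fold. In 30 min and silent cells Cast was at 6.72 and 6.42 CPM in the IL-13 index and at 50.4 and 50.9 CPM in the IL-5 index. The activated reads of Cast came from 2 cells in each index.

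The proteases themselves were unevenly represented. None of 20 granule serine proteases, the granzymes, neutrophil elastase, cathepsin G and mast cell proteases that several clade B serpins are known to inhibit, had a read in any of the 120 cells. Of 13 cathepsins, 9 passed the filter, and in activated against pre-stimulation cells 1 was lower and 2 were higher past 4-fold in the IL-13 index (18.1% and 25.6% of all tested genes) and 1 lower and 5 higher in the IL-5 index (18.5% and 29.1%). Ctsd, the lysosomal aspartic protease, had the highest mean (216 CPM), followed by Ctsz (157), Ctsa (78.6), Ctsb (71.0) and Ctsw (35.2). Ctss was past 4-fold higher in both indexes, at 0 before stimulation and 15.3 and 28.9 CPM in activated cells, where its reads came from 2 cells and 1 cell. The median log2 ratio of the cathepsins with a ratio was 0.11 and 2.51, beside 0.37 and 0.38 over all genes with one.

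Caspases, the cysteine proteases of cell death and inflammation, were lower in activated cells in most of the 5 of 9 that passed the filter. In the IL-13 index 4 of them were past 4-fold lower (18.1% of all tested genes) and in the IL-5 index 3 (18.5%), with 0 higher in either, and the median log2 ratio was -3.73 and -2.83, beside 0.37 and 0.38 over all genes with one. Casp1, which matures IL-1 family cytokines, was at 179 and 143 CPM before stimulation and at 0 and 20.1 CPM in activated cells. Casp4, the sensor of cytosolic lipopolysaccharide, was at 167 and 277 CPM before and at 16.9 and 16.1 CPM in activated cells. Silent cells held 10.2 and 10.4 CPM of Casp4, and 28.7 and 119 CPM of Casp1. Casp2 was at 107 and 48.7 CPM before, from 2 cells and 1 cell, and at 0 in both activated groups, while Casp8 (36.3 and 23.9 CPM before, 19.1 and 19.8 CPM activated) stayed within 4-fold. Casp6 was at 74.7 CPM before (2 cells) and 5.64 CPM in IL-13 activated cells (1 cell), and at 0 and 4.56 CPM in the IL-5 index.

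**Figure D5:**
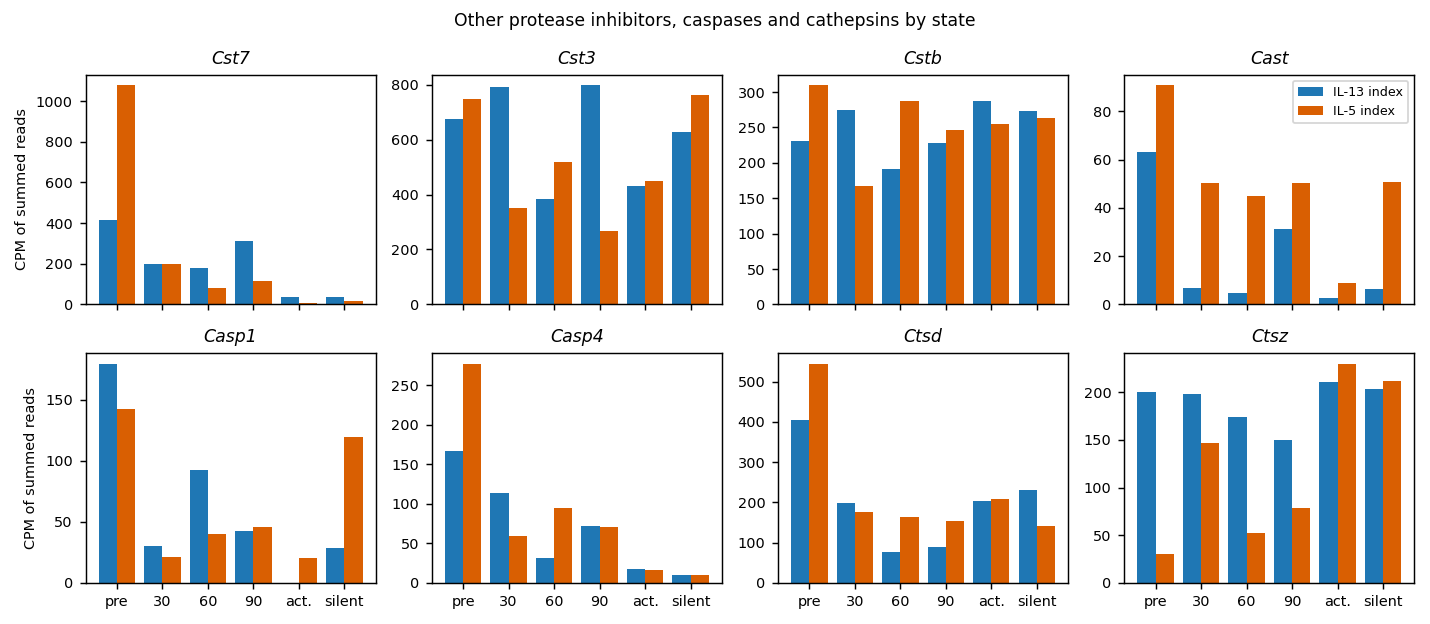
CPM of summed reads by state for 8 related genes, with the index as colour: the inhibitors Cst7, Cst3, Cstb and Cast, the caspases Casp1 and Casp4 and the cathepsins Ctsd and Ctsz. Each bar is a sum over 5 or 11 cells and has no error bar, because a group counts as 1 sample; Cst7, Cast, Casp1 and Casp4 are lowest or near lowest in activated cells.

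The genes whose levels most resembled those of a member over the 12 groups were ranked by Pearson's r of log2(CPM + 1) among 2655 other genes (2656 for Serpinb9, itself under the limit) that averaged 50 CPM or more. The 12 points share cells of the same pool and differ in depth, and r is given as a description. For Ctla2a these were Baiap2 (r = 0.89), Higd2a (0.88) and Map1lc3b (0.87). Map1lc3b, which marks autophagosomes, ran from 423 CPM before stimulation to 1450 CPM at 60 min in the IL-5 index. For Ctla2b they were Slc9a3r1 (0.87), Arhgap15 (0.86) and Plin3 (0.85). Arhgap15, which inactivates the small GTPase Rac, was at 0 in the 90 min and activated cells of the IL-5 index and at 10.6 CPM in IL-13 activated cells.

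The genes most like Serpinb1a were Aes (0.93), Vars (0.92) and Arg1 (0.90). For Serpinb6a the most alike were Cdk17 (0.84), Actr2 (0.81) and Zcchc7 (0.79), and for Serpinb9 Nudt2 (0.83), 1110038F14Rik (0.83) and Mrps5 (0.82). Among the members themselves, r was 0.64 between Ctla2b and Serpinb1a and 0.56 between Ctla2a and Ctla2b. In single cells Ctla2b and Serpinb1a overlapped in part: of the 117 cells, 34 held both, 21 only Ctla2b, 18 only Serpinb1a and 44 neither. Spearman's rho of their CPM was 0.28 over these cells and 0.16 over the 95 that were not activated, as a description of sparse counts.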

How the data were processed

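For each of 120 single cells a library was built (SMART-Seq v4 3' DE kit), and 5 or 6 libraries were pooled evenly before tagmentation. The authors aligned the reads with TopHat2 (per the labels) to GRCm38 and deposited raw HTSeq counts per gene. Neither the strand setting nor the annotation release is given in the sources used here. Reads with more than 1 alignment, which HTSeq lists apart from genes, came to 28.7% of all entries counted, and those outside any gene to 7.42%. Each file held 46078 identifiers and 5 HTSeq entries, and symbols came from GENCODE M21 for 45143 of them.

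Groups followed the source names. Reads of a group's cells were added up and scaled to CPM with no further normalization, and log2 ratios used a floor of 3 reads over the group. No ratio was given where both groups lay at or under the floor or the bound had no direction. The level filter was a mean of 10 CPM, and 50 CPM for pattern likeness. A fold of 4 was taken from the study. The ratio was tested on simulated data, and its interval was not. Depth ran from 65 to 785198 reads per cell, which limits low genes most in 6 shallow cells.

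The members and the lists were chosen with earlier results of these data known. The lists were the other serpins, cystatins, other inhibitors, cathepsins, granule serine proteases and caspases, with markers of ILC2, mast cells and basophils, T cells, NK cells and ILC1, B cells, myeloid cells, stroma and endothelium, and the cell cycle. Named from each list were up to 5 genes of highest mean CPM and those past 4-fold the same way in activated against pre-stimulation cells of both indexes, and for each member the 3 genes of highest r. Not all such genes are named in the text.

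Ratios within an index were also computed by averaging CPM over cells and with TMM (edgeR 4.0.16) or size factors (DESeq2 1.42.0, both in R 4.3.3). Where the cells allowed it, they were computed on single title dates, leaving out the 6 shallow cells, and without each cell in turn. Ratios to pre-stimulation cells were also taken against the pooled pre-stimulation cells of the indexes. Shares of all genes past 4-fold were also computed with minimums of 50 CPM or none. Software: pandas 2.3.3, numpy 2.4.6, matplotlib 3.10.9 and scipy 1.17.1 under Python 3.11.15.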

Additional observations from a re-analysis of the deposited data

Results flagged for a closer look

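Among the pre-stimulation groups of 5 cells with a value above 0, a single cell lay far from the other 4 in 4 of the 9 groups tested, by the gap to the nearest cell over the whole range (limit 0.71). The limit passes about 1 in 20 groups of evenly measured values by chance, a rate that cannot be applied to genes read in only 1 or 2 of the 5 cells, where the gap is large by construction. In the IL-5 index, pre-stimulation replicate 1 held 5886 CPM of Ctla2a (0.75) and replicate 4 held 764 CPM of Serpinb6a (0.996). In the IL-13 index, replicate 4 held 391 CPM of Ctla2b (0.95) and replicate 5 held 458 CPM of Serpinb9 (0.87). This holds for the last 3 of these genes, for which the other 4 cells of the group held 60.9 CPM or less.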

How the results depend on the processing

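No paired analysis was possible because no result comes from a test and the replicate numbers were given in accession order only. Leaving out each cell in turn, the log2 ratio of activated against pre-stimulation cells ran from -6.66 to -2.74 for Ctla2b and from -10.79 to -9.87 for Serpinb1a in the IL-13 index. In the IL-5 index it ran from -7.63 to -6.49 and from -9.72 to -6.46. The members past 4-fold numbered 2 to 3 of 5 (IL-13) and 4 throughout (IL-5). In the latter, Serpinb6a counted as higher in place of lower without pre-stimulation replicate 4. Against the pooled pre-stimulation cells the members past 4-fold numbered 3 in each index. With the first title date alone, the ratios were -4.95 and -9.18 (IL-13) and -5.97 and -5.85 (IL-5). The first 3 are bounds, which fewer activated cells raise, and the last is not, since activated cells of that date held 34 of the 39 Serpinb1a reads. With edgeR's TMM factors, which add 0.47 in the IL-5 index, they were -6.74 and -6.41 there. All of these ratios of Ctla2b and Serpinb1a kept their direction and stayed beyond 4-fold.

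Of the values past 4-fold, a few reversed. Serpinb6a in activated against pre-stimulation cells of the IL-5 index turned to 2.99 without pre-stimulation replicate 4 and was -3.98 at its lowest. Serpinb9 in the IL-5 index turned to -0.996 in activated and -0.61 in silent cells against the pooled pre-stimulation cells of the indexes. Serpinb1a in activated against silent cells of the IL-5 index turned to 0.16 on the first title date. The cause was not tested. The ratio of the IL-5 to the IL-13 index for Serpinb6a before stimulation, recomputed without each cell after the data were seen, turned from 2.24 to -3.59 and was 3.47 at its highest. Over the ratios within an index, 301 values under other settings stayed within their counting interval, 221 moved and 3 of those past 4-fold reversed. On leaving out cells, 29 of 96 ratios changed sign, of which 1 was past 4-fold, 13 were of Serpinb6a and 10 of Serpinb9. The share of all genes past 4-fold in activated cells was 43.6% (IL-13) and 47.6% (IL-5), 34.3% and 37.1% at a minimum of 50 CPM, and 41.3% and 45.1% with no minimum. Depth limits the low serpins: a group with 0 reads allows between 0.80 and 3.11 CPM at 3 reads, and ranges over 5 cells say little about pre-stimulation cells as a whole.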

Other observations

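Genes listed here as markers of mast cells and basophils and of stroma and endothelium were read in some of these cells. Fcer1a, a chain of the high-affinity IgE receptor, was read in 15 cells and was at 0 in the 30 min and silent cells of both indexes. In the IL-13 index its level was 301 CPM before stimulation, 326 CPM at 90 min and 48.5 CPM in activated cells. In the IL-5 index these states held 37.1, 241 and 233 CPM. Cd200r3 was at 478 CPM in pre-stimulation cells of the IL-13 index and at 0 in those of the IL-5 index. Of 11 markers of mast cells and basophils, 8 had no read in any cell. The adhesion gene Pecam1, from the list of stroma and endothelium, was read in 77 cells. It was at 175 CPM at 30 min and 134 CPM at 60 min in the IL-5 index against 5.77 CPM before stimulation and 1.61 CPM in activated cells. The other 5 genes of that list had no read, so Pecam1 alone does not mark endothelium here. Of 9 myeloid markers, 7 had no read and the others reached at most 38.3 CPM in a group.

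Among ILC2 genes, Il2ra, a chain of the IL-2 receptor, was at 406 and 213 CPM before stimulation and at 1226 and 2566 CPM in activated cells of the IL-13 and IL-5 index. Klrg1, an inhibitory receptor, went the other way, at 807 and 714 CPM before and 43.5 and 104 CPM in activated cells, and was also low in silent cells (171 and 59.7 CPM). Over the 14 genes, 4 were lower and 2 higher past 4-fold in activated against pre-stimulation cells of the IL-13 index, where 18.1% and 25.6% of all tested genes were, and 2 lower and 1 higher in the IL-5 index, where 18.5% and 29.1% were.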
